A study of Homo sapiens with 6 samples.

Results

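The clustered histone genes were read out in HCT116, a cell line from a human colorectal cancer, after overexpression of the transcription factor YY2. They were taken as the rows of the gene table whose name begins with HIST1H, HIST2H, HIST3H or HIST4H, without those whose name marks a pseudogene, and came to 75 of 50868 rows. By histone type these were 6 linker histone genes (H1) and, for the core histones, 17 genes of H2A, 23 of H2B, 14 of H3 and 15 of H4. RNA-Seq had been performed on polyA RNA of cells transiently transfected with the empty vector (pcCon) or the YY2 overexpression vector (pcYY2), with 3 samples each. All samples are the same line, and no other allele or agent is named in the labels. Nothing in the labels says that the samples came from separate cultures, so the p-values measure only the spread between these samples, which may be technical.

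Histones H2A, H2B, H3 and H4 form the octamer around which DNA is wrapped, and H1 binds the linker DNA between octamers. Most of the core and linker histone protein of a dividing cell comes from clustered, intronless genes that are transcribed in S phase. Their mRNA ends in a conserved stem-loop, which is bound by SLBP and processed with the U7 snRNP, in place of a poly(A) tail. Some of these genes, among them HIST1H1C, HIST1H2AC, HIST1H2BD, HIST1H2BK and HIST2H2BE, are known to make polyadenylated transcripts as well. A selection for polyA RNA thus samples only a portion of the histone mRNA of a cell.

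Of the 75 members, 69 matched a gene of GENCODE 44 by identifier, and 66 of these were annotated as protein-coding, each with its coding sequence in a single exon. The other 3 were annotated as pseudogenes although their names do not say so (HIST2H2BD, HIST2H2BA and HIST3H2BA), and they remained among the members by the rule. The 16-base histone stem-loop was searched on the coding strand within 100 bases after the stop codon, as 2 G, 3 pyrimidines, 2 T, a pyrimidine, a T, any base, an A, 3 purines and 2 C. It was found in 66 of 66 coding members and in 0.371% of 19950 protein-coding genes, that is, in 74 genes. Of these, 8 are no member by gene identifier, but in 4 of the 8 the stop codon lies within the deposited locus of a member. The element of the member with the most reads of each type is shown, with that of HIST1H4J, the member with the smallest p, read from the GRCh38 genome. The capitals mark the stem-loop and the lower case the 5 bases on each side.
HIST1H1C (H1): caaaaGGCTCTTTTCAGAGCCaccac
HIST3H2A (H2A): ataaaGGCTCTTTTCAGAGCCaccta
HIST1H2BK (H2B): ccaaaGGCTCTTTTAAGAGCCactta
HIST1H3E (H3): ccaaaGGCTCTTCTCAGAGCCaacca
HIST2H4A (H4): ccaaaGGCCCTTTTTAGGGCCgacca
HIST1H4J (H4): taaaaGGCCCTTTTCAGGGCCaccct

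The stem-loops lie in the 3′ UTR at chr6:26055744-26055759 (minus strand) for HIST1H1C, chr1:228457369-228457384 (minus) for HIST3H2A and chr6:27146366-27146381 (minus) for HIST1H2BK. Those of the other genes shown lie at chr6:26225596-26225611 (plus) for HIST1H3E, chr1:149833032-149833047 (plus) for HIST2H4A and chr6:27824459-27824474 (plus) for HIST1H4J. The form of HIST1H1C and HIST3H2A was shared by 36 members, all of type H1, H2A, H2B or H3, and the form of HIST1H2BK by 10. A stem of GGCCC and GGGCC was held by all 15 H4 members and by no other coding member, 10 of them with the loop of HIST1H4J and 4 with that of HIST2H4A. The form of HIST1H3E was found in no other member.

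The deposited counts summed to between 15158360 and 29572882 reads per sample. YY2, on chromosome X at 21855987 to 21858727, had 111, 126 and 72 reads in the pcCon samples and 488, 898 and 555 in the pcYY2 samples, a fold change of 5.23 with a 95% confidence interval of 4.18 to 6.55 (edgeR, adjusted p = 0.00107). Reads from the vector and from the YY2 gene cannot be told apart here. FPKM are reads scaled to the library total and to a length fixed for each gene. Among the epithelial markers EPCAM, CDH1, KRT8, KRT18 and KRT19 were expressed, with a mean FPKM of 5.54 to 134. CDH17 was at 0 and VIL1 near 0. KRT8 and KRT19 rose in pcYY2, by 0.67 and 0.60 on the log2 scale. Markers of leukocytes, endothelium and fibroblasts (PTPRC, CD3E, PECAM1, VWF, COL1A2 and DCN) had a mean FPKM of at most 0.0673, with 69 of the PTPRC reads, 12 of those of CD3E and 27 of those of PECAM1 in pcYY2 sample 2. COL1A1 was at a mean FPKM of 2.27, and HBB, of red cells, varied widely within both groups, with an FPKM of 35.2 in pcCon sample 1, 54.3 in pcYY2 sample 2 and 4.49 to 7.94 in the others. Hence pcCon sample 1 and pcYY2 sample 2 stood apart in HBB, and results without both are given where they matter, an alternative chosen after seeing the data. Their part in the results was not otherwise tested.

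Only a small number of reads fell on the clustered histone genes. The 3 pcCon samples had 760, 762 and 673 reads on the members, and the 3 pcYY2 samples 656, 1298 and 742. This is between 0.00404% and 0.00444% of all reads, with overlapping groups. In CPM (reads scaled to library size) after TMM scaling, by which each library is put on a common scale, the sum over all members was 42.4 ± 1.57 (SD, n = 3) in pcCon and 42.6 ± 1.93 in pcYY2. In a bulk sample, fewer cells in S phase and less histone mRNA per cell cannot be told apart.

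By detection, 57 of the 75 members had a read in at least 1 sample, 32 had a read in all 6 samples, and 18 had none. The 18 without a read were 24% of the members, against 45.9% of all rows. A count of 0 allows up to 3 reads, by counting error only. This is between 0.101 and 0.198 CPM depending on the sample, so a transcript under this level could be missed. In a further 13 members, the highest count in any sample was 1 to 3. A mean FPKM of at least 1, the filter of the test, was reached by 11 members (14.7%, against 23.6% of all rows), and 10 members had at least 10 reads in every sample.

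By type, H2A had a read in 15 of 17 members and in all samples in 11, and H2B in 16 of 23 and 12. H4 had a read in 12 of 15 members but in all samples in only 5. H3 had a read in 9 of 14 members and in all samples in 2, and no H3 gene reached a mean FPKM of 1. Of the 6 H1 genes, 5 had a read, yet HIST1H1C held 96.0% of the H1 reads. Of the other H1 genes, HIST1H1E had 22 reads over the 6 samples, HIST1H1B and HIST1H1D had 2 each, HIST1H1A had 1, and HIST1H1T, the testis H1, had none. By locus, reads were found in 41 of 55 members of HIST1 on chromosome 6, in 13 of 15 of HIST2, in 2 of 4 of HIST3 and in the single HIST4 gene, HIST4H4 on chromosome 12.

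**Figure D1:**
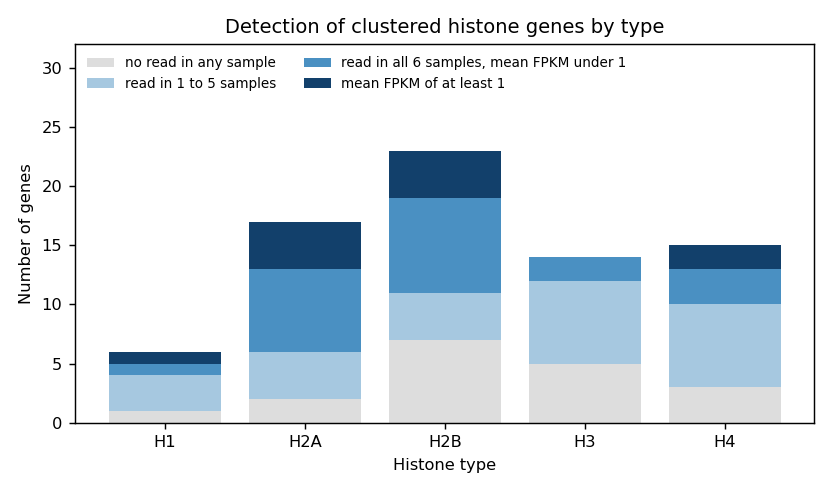
Number of clustered histone genes of each histone type (x axis) by detection, as stacked bars: no read in any sample, a read in 1 to 5 samples, a read in all 6 samples with a mean FPKM under 1, and a mean FPKM of at least 1. H2A and H2B have 4 genes each in the highest class, H4 has 2, H1 has 1 and H3 has none.

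The reads were concentrated on few genes. Together the members had 4891 reads, of which HIST1H2BK alone had 733, the top 3 genes held 39.1% and the top 10 held 70.9%. HIST1H2BK, HIST1H1C and HIST3H2A led in reads and also in FPKM. H2B took 40.0% of the reads, H2A 27.8%, H1 13.7%, H4 9.34% and H3 9.18%.

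HIST1H2BK, a canonical H2B gene, had 122, 116 and 109 reads in pcCon and 115, 161 and 110 in pcYY2, the largest of these in the deepest sample. With 17.7 ± 1.10 (SD, n = 3) in pcCon and 16.6 ± 2.81 in pcYY2, its FPKM was the highest of all members, and the groups overlapped. HIST1H1C, which encodes the linker histone H1.2, had 96, 83 and 108 reads in pcCon and 68, 163 and 123 in pcYY2. Its FPKM of 8.80 ± 2.07 in pcCon and 8.64 ± 1.75 in pcYY2 likewise overlapped. HIST3H2A, an H2A gene outside the large cluster of chromosome 6, had 117, 72 and 58 reads in pcCon and 94, 142 and 55 in pcYY2. Its FPKM of 5.29 ± 1.64 in pcCon and 5.19 ± 1.76 in pcYY2 showed a spread within each group far above the difference between them. In pcCon, sample 1 stood above the other two.

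HIST2H2BD, annotated as a transcribed unprocessed pseudogene of H2B, followed next by FPKM, with 27, 38 and 44 reads in pcCon and 35, 82 and 23 in pcYY2. HIST1H2BD, an H2B gene, had 54, 59 and 44 reads in pcCon and 35, 78 and 33 in pcYY2. Per length and depth, HIST1H2BD was at an FPKM of 2.31, 2.52 and 2.26 in pcCon and 1.78, 2.05 and 1.40 in pcYY2, so every pcYY2 sample lay below every pcCon sample. HIST1H2AC, an H2A gene with 51, 51 and 54 reads in pcCon and 43, 68 and 47 in pcYY2, and HIST1H3E, the H3 gene with the most reads, with 38, 50 and 29 against 39, 68 and 31, had many reads but long gene models. Their mean FPKM of 0.671 and 0.704 therefore stood under the filter. The groups overlapped in both genes.

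**Figure D2:**
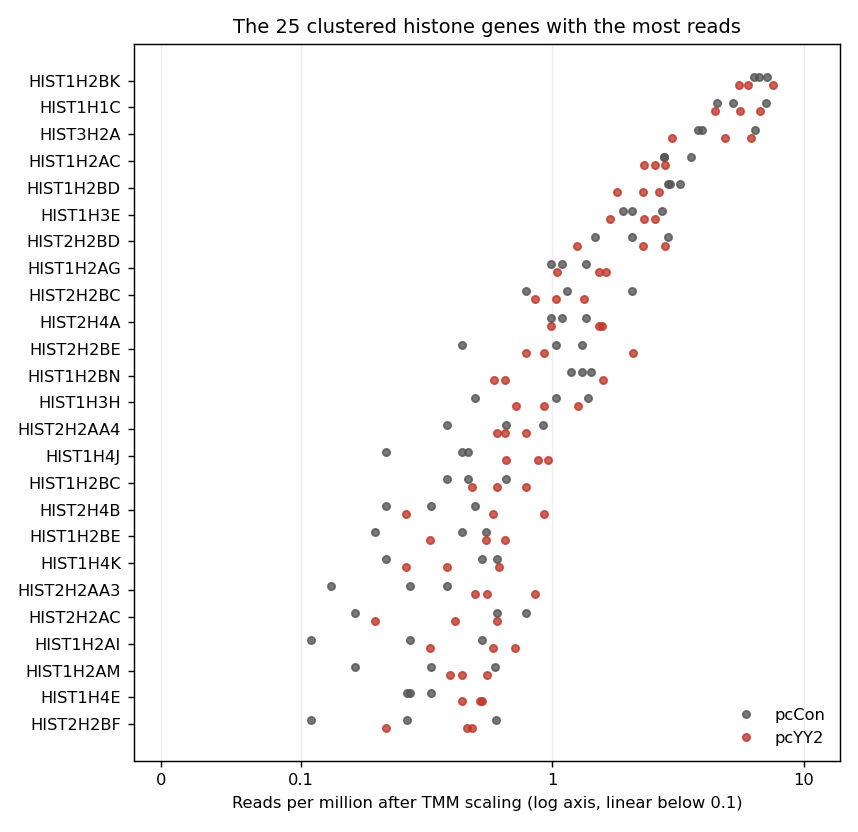
CPM after TMM scaling (x axis, log scale, linear below 0.1) in each pcCon (grey) and pcYY2 (red) sample for the clustered histone genes with the most reads, ordered by total reads. Most genes overlap between the groups; in HIST1H4J, HIST1H4E and HIST2H2AA3 the pcYY2 points lie above, and in HIST1H2BD below, all pcCon points.

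The comparison of pcYY2 with pcCon asks whether overexpressed YY2 shifts histone mRNA. In the test across the 12015 genes at or above the filter (edgeR, quasi-likelihood test with Benjamini-Hochberg adjustment), 9.37% of genes passed an adjusted p of 0.05, with 4.52% higher and 4.85% lower. Of the clustered histone genes 11 were tested, and 0 passed in either direction. At an unadjusted p under 0.05 the count was 1 of 11 with edgeR, where 28.9% of all genes tested lie. It was 0 with DESeq2 and 2 with limma, for which the share over all genes was not taken. The smallest adjusted p of a member was 0.0763 with edgeR and 0.0501 with limma, both for HIST1H4J. DESeq2 gave an adjusted p for only 5 of the 11, the smallest being 0.465 for HIST1H2BD, and none for HIST1H4J, whose unadjusted p was 0.0901 there. The median log2 fold change of the 11 was -0.0026, with 5 above and 6 below 0, against 0.0020 over all genes tested. Groups that do not overlap were found for 2 of the 11 members, HIST1H4J and HIST1H2BD, against 35.8% of all genes tested. Without the 2 samples highest in HBB, 0 members passed, 0 had an unadjusted p under 0.05, and the median of the members was -0.14. In that fit only 29 of all genes tested were called higher and 54 lower, and the share at an unadjusted p was not taken.

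The members are low in reads, and the test is less precise there. The median standard error was 0.36 for the 11 members and 0.09 for all genes tested. Among the 1378 genes in the members' range of CPM, 2.76% passed the test, and the smallest log2 change among those that passed was 0.60.

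For HIST1H2BK the log2 fold change was -0.09 with a 95% interval of -0.45 to 0.27, the narrowest of the members (adjusted p = 0.731). That of HIST1H1C was -0.0026 with an interval of -0.53 to 0.52, and that of HIST3H2A was -0.02 with an interval of -0.76 to 0.71. HIST2H2BD was at 0.01 with an interval of -0.83 to 0.86. HIST1H2BD, whose groups did not overlap, was at -0.41 with an interval of -0.86 to 0.04 (adjusted p = 0.206). The other 5 members that were tested, HIST1H2AM, HIST2H2AA4, HIST2H2AC, HIST2H2BC and HIST1H4K, lay between -0.30 and 0.42, with adjusted p-values of 0.591 to 0.994. Of the 5 genes with known polyadenylated transcripts, 3 were tested (HIST1H1C, HIST1H2BD and HIST1H2BK), and none passed.

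With the filter lowered to a mean FPKM of 0.1, 42 members were tested among 18877 genes. Of all genes 4.82% passed the test, and of the members none did, with a smallest adjusted p of 0.124 (edgeR). An unadjusted p under 0.05 was found for 3 of the 42, against 22.6% of all genes. The median log2 fold change was 0.07, with 24 members above and 18 below 0, against -0.00027 over all genes tested. HIST1H2AC was at -0.22 (interval -0.66 to 0.21) and HIST1H3E at -0.01 (interval -0.58 to 0.55). Wider intervals were given by HIST1H2AG, another H2A gene, at 0.33 (interval -0.32 to 0.98), by HIST1H3H, of H3, at 0.07 (interval -0.90 to 1.05), and by HIST1H1E, the linker histone H1.4, at 0.07 (interval -1.41 to 1.55). HIST2H2BE, of H2B, was at 0.54 (interval -0.66 to 1.73), with 61 of its 137 reads in pcYY2 sample 2. Without that sample it was at -0.08, and its gene model of 44449 bases overlaps 9 other rows of the table.

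**Figure D3:**
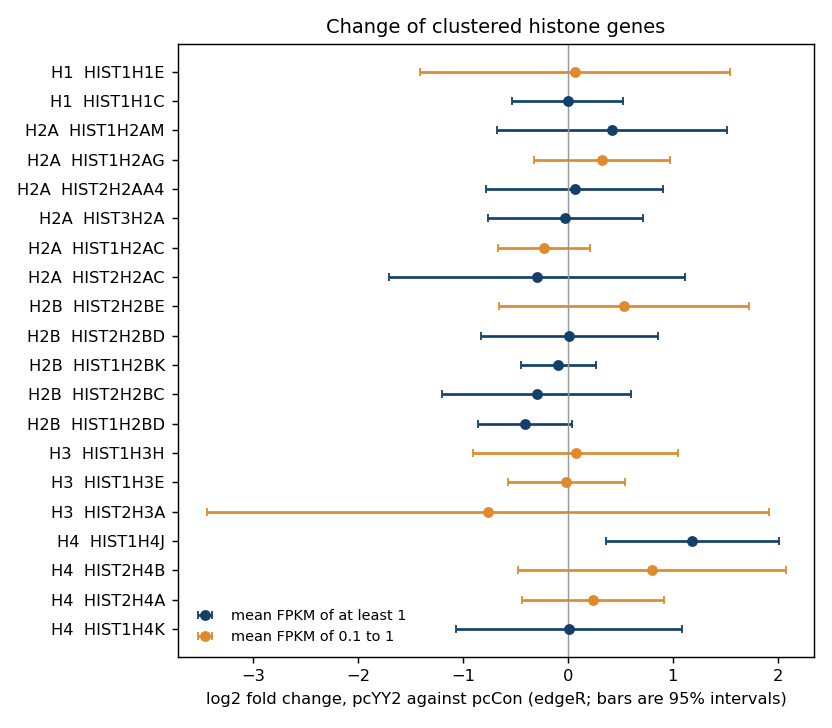
Log2 fold change of pcYY2 against pcCon (x axis, edgeR) with its 95% interval for the 11 clustered histone genes past the filter of 1 FPKM (blue) and for those with the most reads of each type or known polyadenylated transcripts that lie between 0.1 and 1 (orange). Apart from HIST1H4J, at 1.19, every interval includes 0.

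By histone type, the sums over all members, including those too low for the test, were close between the groups for H1, H2A, H2B and H3. The sums are given as a description, with no test. H1 summed to 5.83 ± 1.26 CPM (SD, n = 3) in pcCon and 5.84 ± 1.08 in pcYY2. H2A summed to 11.7 ± 1.36 and 12.0 ± 1.46, and H3 to 3.76 ± 0.926 and 3.87 ± 0.785. These log2 ratios of 0.00, 0.03 and 0.04 were each under the spread within groups on the log2 scale, which was 0.29, 0.17 and 0.32. For H2B, with 17.7 ± 0.817 in pcCon and 16.3 ± 1.43 in pcYY2, the log2 ratio of -0.12 was slightly above the spread of 0.10, but the groups overlapped. The value of H1 is that of 1 gene, and without HIST1H1C its log2 ratio was 0.34, on 27 reads in all.

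H4 was the type whose sum did not overlap between groups, with 3.22, 3.27 and 3.48 CPM in the pcCon samples and 3.92, 4.41 and 5.24 in the pcYY2 samples. The means were 3.32 ± 0.139 (SD, n = 3) and 4.53 ± 0.669, a log2 ratio of 0.45 against a within-group spread of 0.16. The sums rest on 53 to 129 reads per sample. Without the 2 samples highest in HBB the log2 ratio was 0.44. When the other types are set beside it, H4 is 1 sum of 5, and 35.8% of the genes tested at the higher filter have groups that do not overlap either.

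**Figure D4:**
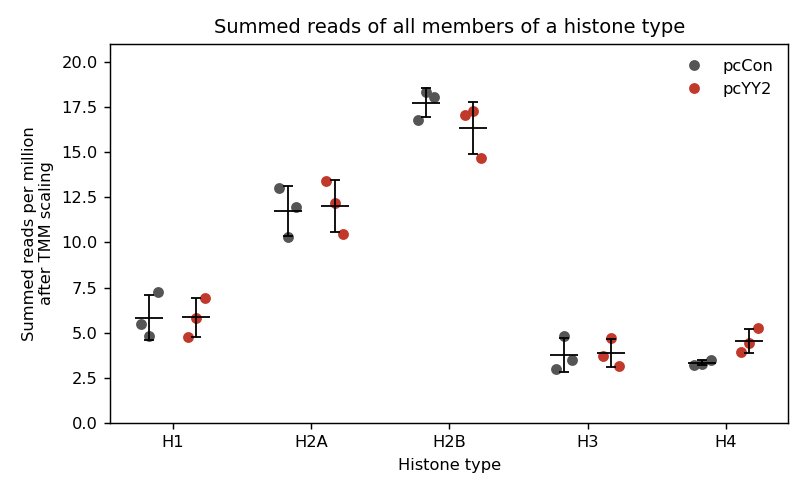
Summed CPM after TMM scaling (y axis) of all members of each histone type in the pcCon (grey) and pcYY2 (red) samples, with the mean (horizontal line) and SD (error bars, n = 3). For H4 all pcYY2 points, from 3.92 to 5.24, lie above all pcCon points, from 3.22 to 3.48; the other types overlap.

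Among the H4 members, HIST1H4J had 4, 8 and 7 reads in pcCon and 10, 28 and 16 in pcYY2, and all pcYY2 samples lay above all pcCon samples in FPKM (0.589, 1.18 and 1.24 against 1.75, 2.54 and 2.33). Its log2 fold change was 1.19 with a standard error of 0.35 and an interval of 0.36 to 2.01. The unadjusted p of 0.0116 became 0.0763 after adjustment over all genes (edgeR), so the gene did not pass. Without the 2 samples highest in HBB its log2 fold change was 0.77 (adjusted p = 0.321). The coding sequence of HIST1H4J, 309 bases long, is identical to that of HIST1H4K, which had 11, 4 and 8 reads in pcCon and 4, 18 and 7 in pcYY2 and a log2 fold change of 0.0071 (interval -1.07 to 1.08). Reads within that sequence cannot be told apart between the genes, and how the authors treated them is not given in the sources used here. Summed over both genes, the reads were 15, 12 and 15 in pcCon and 14, 46 and 23 in pcYY2, or 0.819 ± 0.166 and 1.25 ± 0.329 CPM (SD, n = 3), and the groups overlapped.

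The sums were also taken without these genes, which was chosen after seeing the data. Without HIST1H4J the H4 sums were 3.00, 2.83 and 3.02 CPM in pcCon and 3.27, 3.45 and 4.37 in pcYY2, a log2 ratio of 0.32, still with no overlap. HIST2H4A, the H4 gene with the most reads, held 30.9% of the H4 reads, with 20, 25 and 15 in pcCon and 24, 29 and 28 in pcYY2. Its log2 fold change was 0.24 with an interval of -0.43 to 0.92. HIST2H4B, whose coding sequence is the same as that of HIST2H4A, had 4, 9 and 5 reads in pcCon and 4, 17 and 17 in pcYY2, and a log2 fold change of 0.80 with an interval of -0.48 to 2.07. When the 4 H4 genes of these pairs were left out, 135 reads remained and the log2 ratio was 0.39, but the groups overlapped (1.09, 0.762 and 1.18 against 1.18, 1.26 and 1.53 CPM).

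Groups that do not overlap were seen in 8 of the 42 members tested with the lower filter, against 29.5% of all genes tested there. These genes are named after their values were seen. Of H4, they were 4 of 8 tested, with HIST1H4J, HIST1H4C (1, 0 and 1 reads in pcCon against 5, 4 and 3 in pcYY2) and HIST1H4E (6, 5 and 4 against 8, 15 and 8) higher in pcYY2 after scaling to depth, and HIST1H4I (3, 5 and 4 against 1, 3 and 0) lower. HIST1H4I reached the 0.1 filter only through pcCon, with a mean FPKM of 0.181 there and 0.0429 in pcYY2. HIST1H4C reached it only through pcYY2, with 0.479 against 0.0926 in pcCon. The filter thus favoured separate groups in these genes, and no shared direction is read from the 4. Of the other types, HIST2H2AA3 (7, 5 and 2 reads in pcCon against 13, 16 and 9 in pcYY2) and HIST1H2AJ (2, 3 and 2 against 6, 6 and 4) were higher. HIST1H2AD (6, 7 and 4 against 3, 4 and 1) and HIST1H2BD were lower. Apart from HIST1H2BD, each of these had at most 28 reads in any sample. HIST2H2AA4, the member named next to HIST2H2AA3, had 7, 12 and 14 reads in pcCon and 12, 19 and 11 in pcYY2. Its log2 fold change was 0.08 (interval -0.83 to 1.00). Whether the reads of HIST2H2AA3 and HIST2H2AA4 can be told apart was not tested. H3 had none among its 8 tested members, and H1 none among 2. HIST2H3A, the H3 gene with the third most reads, had 2, 11 and 0 reads in pcCon and 0, 5 and 4 in pcYY2, and a log2 fold change of -0.76 with an interval of -3.44 to 1.91.

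The copies of the clustered genes resemble each other, which limits how their reads can be assigned. In 6 coding members, which form 3 pairs with identical coding sequences (HIST1H4J and HIST1H4K, HIST2H4A and HIST2H4B, HIST2H3A and HIST2H3C), no stretch of 50 bases of the coding sequence occurs only once in the genome. In 32 members every such stretch does, and the median over the coding members was 99.1% of stretches. The 6 members without a match in GENCODE 44, HIST2H2AA3 and HIST2H2AA4 among them, were not in this comparison. HIST1H2BK, with the most reads, had 26.1% of its 50-base stretches unique and 72.4% of its 100-base stretches. Values of these genes are therefore uncertain, also since the strand setting of the counting is not given in the sources used here and 28 members overlap another row of the table.

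The gene model on which reads were counted also differed between members. In 30 coding members the deposited locus equals the coding sequence, and 21 of these had a read, with a median of 4.5 reads over the 6 samples. In 36 it is longer, 31 of these had a read, and the median was 30.5 reads. The stem-loop lies wholly inside the locus of 32 members, of which 28 had a read. In the other 34 the locus ends before the last base of the stem-loop, and 24 of these had a read, HIST1H2BK among them. In HIST1H1E and HIST1H1T, of these 34, the locus ends within the stem-loop. These counts describe the annotation and the reads together, and longer models also collect more reads by their length.

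Several H2A and H2B genes lie head to head, and 12 such pairs were found, with 303 to 381 bases between the coding starts. In 11 pairs both genes had a read, and in the pair of HIST1H2AA and HIST1H2BA, the testis histones, neither had. The reads were not shared evenly within pairs. HIST1H2BK had 733 reads and its partner HIST1H2AH had 5, HIST3H2A had 538 and its partner HIST3H2BB had 32, and HIST1H2AI had 50 and its partner HIST1H2BL had 2. In these 3 pairs, 1 gene had more than 10 times the reads of the other.

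The replication-independent histone genes are, for the most part, transcribed outside S phase as well, as polyadenylated mRNA. By FPKM, 7 of the 12 stood above HIST1H2BK, the highest clustered gene, and 5 below it. The FPKM over all samples was 287 for H1F0, the linker histone H1.0, 80.5 for H2AFX, the H2A variant phosphorylated at DNA breaks, 62.0 for H2AFZ and 36.0 for H3F3B, which encodes H3.3. HIST1H2BK was at 17.1. Below it were H2AFY at 8.61, CENPA at 4.21, H2AFJ at 1.95, H3F3A, which also encodes H3.3, at 0.924 and H3F3C at 0.631. This order depends on the length by which the reads are divided. In CPM, H2AFY (233), CENPA (14.1) and H2AFJ (9.30) stood above HIST1H2BK (6.82) in pcCon. H3F3A and H3F3C had fewer reads than HIST1H2BK in every sample. H2AFX, on chromosome 11, also held the stem-loop. Of the 10 tested of 12 in the list, 3 rose and none fell, where 4.52% of all genes tested were called higher and 4.85% lower, and the median log2 fold change was 0.14. With the lower filter 2 of 12 were called, both higher, against 4.82% of all genes tested there called in either direction. The 3 were CENPA, the centromeric H3 variant, with 0.49 ± 0.09 (SE, adjusted p = 0.0209, edgeR), H2AFY2, which encodes a macroH2A, with 0.26 ± 0.06 (adjusted p = 0.0462), and H1FX, a linker histone, with 0.24 ± 0.06 (adjusted p = 0.0482). Leaving out any 1 of the 6 samples ended the call of H2AFY2 and H1FX in every case (adjusted p from 0.0615 to 0.121 and from 0.0644 to 0.138), and that of CENPA in all but 1 (adjusted p from 0.0325 to 0.0790). The calls of H2AFY2 and H1FX were also lost with upper quartile scaling (adjusted p = 0.0560 and 0.0581) and without a filter (0.0551 and 0.0767), and that of H1FX with the lower filter (0.0529).

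**Figure D5:**
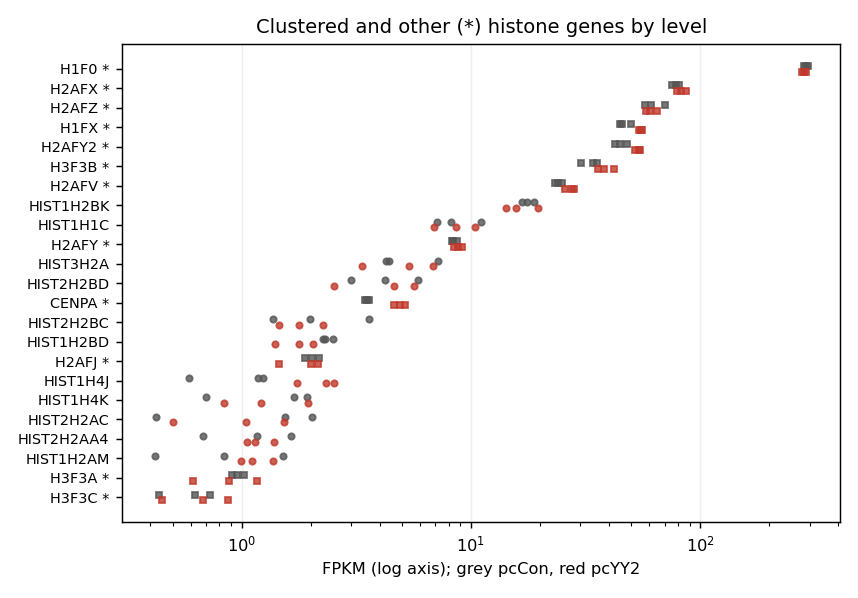
FPKM (x axis, log scale) in each pcCon (grey) and pcYY2 (red) sample of the clustered histone genes past the filter of 1 FPKM (circles) and of the replication-independent histone genes (squares, marked with an asterisk). H1F0, H2AFX, H2AFZ, H1FX, H2AFY2, H3F3B and H2AFV stand above HIST1H2BK, the highest clustered gene.

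The genes that act on clustered histone mRNA were expressed in both groups. Of 23 genes for its transcription, processing and decay, 22 were tested and 0 passed in either direction (edgeR), against 9.37% of all genes tested. An unadjusted p under 0.05 was found for 7, against 28.9% of all genes tested, and the median log2 fold change was 0.01. SLBP, the stem-loop binding protein, was at an FPKM of 34.7 ± 2.03 (SD, n = 3) in pcCon and 33.6 ± 3.53 in pcYY2, with a log2 fold change of -0.03 (interval -0.24 to 0.17). NPAT, the coactivator of the histone genes in S phase, was at 4.49 ± 0.456 and 4.24 ± 0.387, with a log2 fold change of -0.07 (interval -0.30 to 0.16).

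Of 17 genes of histone chaperones and deposition, 4 rose and none fell, against 4.52% of all genes tested called higher and 4.85% lower. With the lower filter 3 of 17 were called, all higher, against 4.82% of all genes tested there called in either direction. HJURP, the chaperone of CENPA, rose from an FPKM of 13.2 ± 0.199 (SD, n = 3) to 17.9 ± 0.830, a log2 fold change of 0.46 (adjusted p = 0.00625, edgeR). ASF1A and ASF1B, chaperones of H3 and H4, rose by 0.41 (adjusted p = 0.0134) and 0.35 (adjusted p = 0.0439), and NASP, which binds H1 and H3, by 0.31 (adjusted p = 0.0497) on the log2 scale. The call of HJURP was kept without any 1 sample, whereas that of ASF1A was kept in 3 of 6 such fits and those of ASF1B and NASP in 1 each. With upper quartile scaling, ASF1B (adjusted p = 0.0515) and NASP (adjusted p = 0.0577) did not pass.

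Of 22 genes of S phase, 5 rose and 2 fell, against the same shares of all genes tested, and the median log2 fold change was 0.11. CCNA2, the cyclin of S phase and G2, rose by 0.50 (adjusted p = 0.00553, edgeR), RRM2 and RRM1, the subunits of ribonucleotide reductase, by 0.39 (adjusted p = 0.00834) and 0.28 (adjusted p = 0.0116), and MCM7, of the replicative helicase, by 0.29 (adjusted p = 0.0127). CCNE1, the cyclin of the G1/S transition, fell by 0.40 (adjusted p = 0.0133). FEN1, which processes Okazaki fragments, also rose and CCNE2, another cyclin E, fell, both named after their values were seen. Without 1 sample, the calls of CCNA2 and RRM2 were kept in 6 of 6 fits, that of RRM1 in 5, of MCM7 in 4 and of CCNE1 in 3. Without the 2 samples highest in HBB, CCNA2 was the only one of the called histone, chaperone and S phase genes with values given here that still passed (adjusted p = 0.0362). The part of the cell cycle in the H4 sum was not tested.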

How the data were processed

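RNA-Seq of 3 pcCon and 3 pcYY2 samples was analysed. Per the methods and the submitters' processing notes, the authors mapped filtered reads to GRCh38 with TopHat and obtained FPKM with Cufflinks, and HTSeq and Bowtie2 are also named. The deposited counts are whole reads per gene without normalization. The deposited FPKM equal these counts divided by a length fixed for each gene and the sample total (largest deviation 0.00129% over 12107 genes). This length can exceed the deposited locus, as in HIST4H4, with 4702 against 3133 bases. A longer one lowers the FPKM and makes the filter harder to reach. Cuffdiff results were not used. Between 15158360 and 29572882 reads were counted per sample, and no value column lacked a sample.

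Counts were tested with edgeR 4.0.16 (R 4.3.3, TMM, quasi-likelihood, no block) over the 12015 genes whose FPKM averaged 1 or more, and with a lower filter of 0.1 for members under it. An adjusted p of 0.05 or less was called. The standard error is the log2 fold change over the square root of F, and intervals are 95%. Alternatives were other filters and scalings, a replicate block, DESeq2 1.42.0, limma 3.58.1 on log2(FPKM + 1), leaving out each sample, and leaving out pcCon 1 and pcYY2 2 together. The fit was checked on simulated data. The genes named were YY2, any member called, the 3 members of each type with the most reads, the 5 with known polyadenylated transcripts, and at most 5 called genes per other list, with exceptions said in the text. The members and lists were chosen with earlier results of these data known. Tables were handled with Python 3.11.15 and pandas 2.3.3, and plots with matplotlib 3.10.9. Annotation came from GENCODE 44.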

Additional observations from a re-analysis of the deposited data

How the results depend on the processing

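In every alternative run (other filters and scalings, the replicate block, DESeq2, limma and each sample left out), 0 clustered histone genes passed in either direction. Where a member had an adjusted p, the smallest ranged from 0.0501 to 0.465, the latter from DESeq2, which gave none for 6 of the 11 members, HIST1H4J among them. The median log2 fold change of the members ranged from -0.14 to 0.12. Over all genes, 543 were higher and 583 lower. Without 1 sample, these counts were 138 to 412 higher and 147 to 393 lower, each such fit having fewer samples. Without both samples highest in HBB, chosen after seeing the data, they were 29 and 54.

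No sign of pairing by replicate number was seen. Same-numbered samples correlated at -0.0274, -0.0318 and -0.0175 (mean -0.0255) in their deviations from the group mean. The mean of the other pairs, 0.0128, is no separate comparison, since centring within each group ties it to that mean. These values cannot show that the samples were not handled in pairs. A block for the replicate number left 51 higher and 50 lower. YY2 and CCNA2 still passed under the block, the other histone, chaperone and S phase genes named by the rule did not, and the median of the clustered histone genes was -0.0138.

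The H1 sum without its most abundant gene was at 0.34. Several named members changed sign, none of them called in any fit. HIST2H2BD turned to -0.0044 (upper quartile scaling), -0.0138 (block), -0.0054 (DESeq2) and -0.0425 (limma), and from -0.28 to 0.27 without 1 sample. Without both samples highest in HBB, HIST2H2BD was at -0.50, HIST3H2A at 0.22 and HIST1H3H at -0.52. HIST1H1C turned to 0.0129 without a filter, 0.0123 with filterByExpr and 0.0192 with the 0.1 filter. Without 1 sample the ranges were -0.15 to 0.19 for HIST1H1C, -0.22 to 0.0070 for HIST1H2BK, -0.0834 to 0.84 for HIST2H2BE, -0.30 to 0.42 for HIST1H1E, -0.25 to 0.26 for HIST3H2A, -0.12 to 0.15 for HIST1H3E, -0.25 to 0.38 for HIST1H3H and -1.30 to 1.18 for HIST2H3A. The cause was not tested. Depth limits all members, since few reads fell on each.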

Other observations

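The rows left out by name were 13 pseudogenes of the same families, of which 10 had no read in any sample. HIST1H3PS1, a pseudogene of H3, had 4, 3 and 2 reads in the pcCon samples and 3, 4 and 4 in the pcYY2 samples. HIST1H2BPS3 had 4 reads and HIST1H1PS1 had 3 over the 6 samples.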
